A study of Mus musculus with 14 samples.

Results

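The genes described here encode the nuclear subunits and the assembly factors of the mitochondrial respiratory chain and ATP synthase: 100 mouse genes whose symbols begin with Nduf, Sdh, Uqcr, Cox4 to Cox8 or Atp5. H3K27ac is an acetyl mark on a lysine of histone H3, found at promoters and enhancers in use. A region of it was counted as theirs where the nearest protein-coding gene span within 100 kb was one of these genes. By this rule 131 of 55050 H3K27ac regions were members, at 79 of the 100 genes, and all 131 passed the filter on low counts. The same rule took 13 of the 7268 listed binding sites of the transcription factor ONECUT2, at 12 of the genes. The rule uses symbols and positions alone and no measured value, though it was chosen with earlier results of these data known.

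Respiratory complexes I and II feed electrons from NADH and from succinate into coenzyme Q, complex III passes them on to cytochrome c, and complex IV hands them to oxygen. Complexes I, III and IV pump protons across the inner membrane, and complex V, the ATP synthase, uses the returning protons to make ATP. Nearly all of the subunits are encoded in the nucleus by widely expressed genes, and their promoters are known for binding sites of NRF1, of the ETS factor GABP and of YY1. Enterocytes, the absorptive cells of the gut, are rich in mitochondria.

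The material was small intestinal organoids, that is, epithelium grown from intestinal crypts, of a line from a female Lgr5GFPDTR/+ mouse. Chromatin was profiled by ChIPmentation, in which the Tn5 transposase inserts sequencing adapters into antibody-bound chromatin. The RANKL group of 3 H3K27ac libraries had 3 days of 3 µM CHIR99021, which activates Wnt signalling, with 1.5 mM valproic acid, which inhibits histone deacetylases, then 1 day of ENR medium (EGF, Noggin and R-spondin 1), then 100 ng/mL RANKL until harvest at day 6. RANKL, a cytokine, induces M (microfold) cells, which carry antigen across the gut epithelium. The control group of 3 libraries grew in ENR medium, per the labels' protocols. The ONECUT2 libraries, 3 in the RANKL group and 3 in the control group, had these same treatments. RANKL and the pretreatment therefore cannot be told apart, for H3K27ac or for ONECUT2. The 3 replicates of each group were separate differentiation experiments on a single line, so the p-values rest on the spread between experiments and not between animals.

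The H3K27ac libraries held 5434172 to 9160267 reads in regions in the control group and 2745451 to 3902301 in the RANKL group, so the RANKL values carry the larger counting error. Of the M cell marker genes 6 of 7 gained H3K27ac and none lost it, and their summed level went from 235 to 247 CPM (reads in a region, scaled to a library of fixed size) in controls to 559 to 596 CPM in RANKL libraries. The defining epithelial markers were acetylated in every library, with summed levels of 1736 to 1921 CPM in controls and 1654 to 1693 CPM in RANKL libraries (3 of 8 higher, 5 lower, Lgr5 among the lower with a log2 fold of -1.67 ± 0.07). Markers of other cell types were also acetylated: the summed level of 6 mesenchyme markers was 255 to 261 CPM in controls and 323 to 340 CPM in RANKL libraries (4 higher, 0 lower, but 2 and 1 when scaled to library size alone), and that of 5 endothelium markers 383 to 399 and 403 to 425 CPM (3 higher, 2 lower). Leukocyte markers summed to 80.6 to 95.9 CPM in controls and 82.7 to 96.4 CPM in RANKL libraries (2 higher and 1 lower of 4 with a region). Striated muscle markers summed to 42.3 to 62.0 and 59.9 to 66.6 CPM (1 higher of 4 with a region, Acta1 and Tnnt3 having none). With regions within 10 kb of the gene only, Epcam, Ptprc, Col1a2, Dcn, Cdh5 and Kdr were no longer higher and Pecam1 no longer lower. Pdgfra was then lower, with a log2 fold of -0.66. The part of these cell types in the results below was not tested.

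Promoters of 6 members are printed first because the results turn on them: Sdhaf1 and Ndufb6, whose starts had the highest and the lowest fold change; Cox6a1, the lowest in complex IV; Ndufaf4, which gained H3K27ac as a gene; and Uqcrc1 and Ndufaf2, whose starts lie beside an ONECUT2 site. Each window runs from 250 bases before to 50 bases after the start, 5′ to 3′ on the gene's strand, from RefSeq on GRCm38.p6, the same assembly as mm10. Their positions are chr7:30322326-30322625 (minus strand) for Sdhaf1, chr4:40279372-40279671 (minus) for Ndufb6, chr5:115348909-115349208 (minus) for Cox6a1, chr4:24897833-24898132 (plus) for Ndufaf4, chr9:108936398-108936697 (plus) for Uqcrc1 and chr13:108158576-108158875 (minus) for Ndufaf2. Capitals mark matches, on either strand, to the letters searched for NRF1 (GCGCATGCG), ETS/GABP (CCGGAAG), YY1 (AANATGGCG) or ONECUT factors (ATCAAT or ATCGAT).
Sdhaf1: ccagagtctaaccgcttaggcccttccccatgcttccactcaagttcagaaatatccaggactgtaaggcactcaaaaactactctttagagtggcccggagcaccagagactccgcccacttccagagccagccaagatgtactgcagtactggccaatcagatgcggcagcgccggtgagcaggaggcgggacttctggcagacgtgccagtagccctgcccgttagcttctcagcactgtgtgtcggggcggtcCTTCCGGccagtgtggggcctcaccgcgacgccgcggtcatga
Ndufb6: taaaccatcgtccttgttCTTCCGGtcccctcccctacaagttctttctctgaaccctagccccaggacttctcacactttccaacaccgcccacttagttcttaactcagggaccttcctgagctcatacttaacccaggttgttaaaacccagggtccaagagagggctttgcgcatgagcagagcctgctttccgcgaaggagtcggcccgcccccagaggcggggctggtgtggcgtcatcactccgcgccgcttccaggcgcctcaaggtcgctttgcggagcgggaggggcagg
Cox6a1: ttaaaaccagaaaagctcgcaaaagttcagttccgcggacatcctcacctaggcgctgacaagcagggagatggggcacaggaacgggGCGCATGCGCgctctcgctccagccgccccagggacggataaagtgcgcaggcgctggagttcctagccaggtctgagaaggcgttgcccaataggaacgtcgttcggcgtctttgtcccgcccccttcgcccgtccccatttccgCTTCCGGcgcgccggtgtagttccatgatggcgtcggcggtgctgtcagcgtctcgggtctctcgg
Ndufaf4: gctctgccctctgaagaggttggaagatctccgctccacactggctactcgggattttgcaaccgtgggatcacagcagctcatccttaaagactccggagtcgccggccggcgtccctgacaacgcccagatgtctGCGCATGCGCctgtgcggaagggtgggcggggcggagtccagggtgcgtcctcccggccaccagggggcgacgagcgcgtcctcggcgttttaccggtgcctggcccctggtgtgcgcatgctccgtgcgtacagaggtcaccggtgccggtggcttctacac
Uqcrc1: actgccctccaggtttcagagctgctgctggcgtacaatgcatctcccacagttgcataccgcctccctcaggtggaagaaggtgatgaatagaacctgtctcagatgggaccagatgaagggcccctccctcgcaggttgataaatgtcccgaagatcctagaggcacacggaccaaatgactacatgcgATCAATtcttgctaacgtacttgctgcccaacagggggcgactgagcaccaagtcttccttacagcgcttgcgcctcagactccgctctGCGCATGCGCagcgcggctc
Ndufaf2: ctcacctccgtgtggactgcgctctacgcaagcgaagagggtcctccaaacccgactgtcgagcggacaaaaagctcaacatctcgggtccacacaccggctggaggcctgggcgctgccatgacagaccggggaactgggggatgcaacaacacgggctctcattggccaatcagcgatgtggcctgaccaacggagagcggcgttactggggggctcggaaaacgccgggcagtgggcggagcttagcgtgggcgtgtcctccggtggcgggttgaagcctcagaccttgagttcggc
The Sdhaf1 match is to the ETS/GABP letters on the opposite strand, and its first base is base 258 of the window, where the gene start is base 251. Ndufb6 holds the same letters far upstream, from base 19. Cox6a1 has an NRF1 match from base 89, which reads nearly the same on both strands, and an ETS/GABP match from base 235. Ndufaf4 has an NRF1 match from base 138. Uqcrc1 has ATCAAT from base 192 and an NRF1 match from base 281, past the start. Ndufaf2 held none of these letters.

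Of the 100 members, 82 had a promoter in the RefSeq table. NRF1 letters were in 12.2% of these promoters and in 2.61% of the promoters of all 17492 genes in the table. ETS/GABP letters were in 26.8% against 12.9%, and YY1 letters in 14.6% against 3.64%. Among promoters that overlapped an H3K27ac region, which are richer in such sites in general, the shares were 13.2% of 76 members against 4.25% of 9325 genes for NRF1, 28.9% against 20.7% for ETS/GABP and 15.8% against 6.18% for YY1. The members thus held these letters more often than the table as a whole, as a description with no test. The GC box GGGCGG was in 47.6% of member promoters and 49.2% of all, but among acetylated promoters in 47.4% against 69.9%. The cAMP response element TGACGTCA was in 4.88% against 2.54% and the estrogen-related receptor element TCAAGGTCA in 2.44% against 0.377%, the latter in Atp5g3 and Sdhd. ATCAAT was in 3.66% against 7.65%, in Atp5l, Ndufb4b and Uqcrc1, and ATCGAT in no member against 1.0%. All strings were searched on both strands, and matches of different strings may overlap. A match is a description of letters and not of a bound site.

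The starts of respiratory chain genes were among the most acetylated regions of the organoids, and in RANKL libraries their H3K27ac was mostly lower. There were 89 regions at member starts, 67 assigned to a member and 22 to a gene that shares the region. Of these, 76 overlapped a listed start, and 13 lay within 2 kb of an end of a member with no listed start, which may be either end of that gene. Their median mean level was at percentile 91.6 of all regions, against 85.1 for the starts of all protein-coding genes, and 47 of the 89 (52.8%) were among the top 10% of regions, against 35.9% of all starts. The median level was 55.5 CPM in controls and 42.3 CPM in RANKL libraries, while that of all gene starts was 42.5 and 30.4 CPM and that of all regions 8.43 and 9.39 CPM. Regions all span 2000 bp, so these levels compare between genes. Less H3K27ac can mean fewer cells that carry the mark or less of the mark per cell, and these cannot be told apart in bulk chromatin. The difference between the groups also depends on how their libraries were scaled, as given below, and the part of scaling was not tested.

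Of the 89 start regions 3 were higher and 52 lower in RANKL libraries (adjusted p under 0.05 by the quasi-likelihood test of edgeR, used throughout), with 34 not called. Over all 8749 tested start regions 5.03% were higher and 54.7% lower, so the members' share of lower calls (58.4%) was close to that of gene starts in general. The median log2 fold was -0.34 for member starts and -0.39 for all gene starts, and no member start was called with a log2 fold of 1 or more either way, against 1.3% higher and 6.66% lower of all starts. All 3 RANKL libraries lay below all 3 controls at 55 member starts and above them at 3, against a background of 58.6% and 6.44% of all starts. Of all 131 member regions 8 were higher and 50 lower, with every RANKL library below every control at 55 and above at 10, against 24.2% and 20.6% of all tested regions. The 76 regions at listed starts gave 3 higher and 47 lower. Over all 54765 tested regions 14.8% were higher and 21.0% lower with a median log2 fold of 0.06, so the lower share of all member regions (38.2%) lay between these and that of gene starts.

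**Figure D1:**
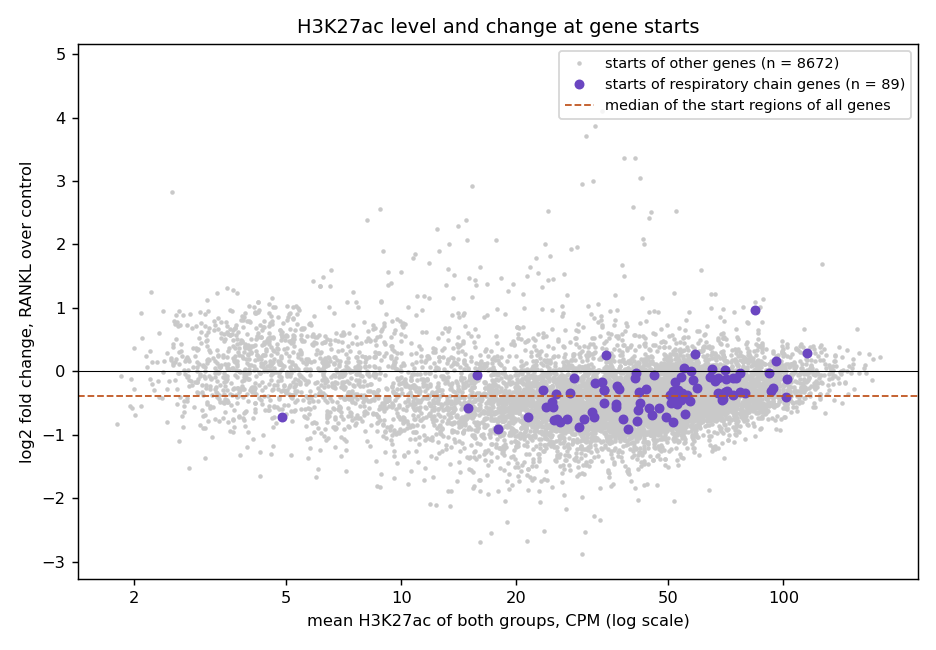
Each point is a region at a gene start, with its mean H3K27ac over both groups in CPM on a log scale and its log2 fold change, RANKL over control, from 3 and 3 libraries. The 89 start regions of respiratory chain genes (purple) lie toward the right, around the dashed median of -0.385 of all gene starts, with Sdhaf1 alone near 1.

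Calls at highly acetylated regions depended on how the 2 groups were scaled. When the smooth dependence of the fold change on signal level was removed before the test, 11 of the 89 member starts were higher and 22 lower (24.7%), against 12.4% higher and 34.2% lower of all starts. The median log2 fold was then -0.09 for member starts and -0.17 for all gene starts. All 3 higher calls and 21 of the 52 lower calls were shared by both scalings and by scaling to library size alone. The member starts that were lower under every scaling included those of Ndufb6, Ndufaf6, Ndufb11, Ndufa7, Ndufv1, Ndufs8, Sdhaf3, Cox6a1, Cox6b1, Atp5h, Atp5e and Atp5d.

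Complex I, the NADH dehydrogenase, had 43 start regions, of which 0 were higher and 26 lower, with a median log2 fold of -0.43. Over all gene starts 5.03% were higher and 54.7% lower. Once the signal trend was removed, 2 of the 43 were higher and 12 lower, against 12.4% and 34.2% of all starts. Ndufb6, an accessory subunit of the membrane arm, had the lowest fold of all member starts, at chr4:40278437-40280437. Its levels were 53.9, 51.7 and 47.8 CPM in control replicates 1 to 3 and 22.1, 32.9 and 26.0 CPM in RANKL replicates 1 to 3. Every RANKL library was below every control, with a log2 fold of -0.91 ± 0.13 (SE, n = 3 and 3, adjusted p = 3.13e-11). Ndufv1, which binds NADH, fell at its start from 61.1 ± 3.3 to 37.4 ± 3.3 CPM (mean ± SD), a log2 fold of -0.72 ± 0.12. Ndufs8, a core subunit that holds iron-sulfur clusters, fell there from 55.6 to 35.3 CPM (log2 fold -0.68 ± 0.12). Ndufa7, an accessory subunit, shares its start region with the ribosomal protein gene Rps28, and that region fell from 65.1 to 37.5 CPM (log2 fold -0.79 ± 0.12). Ndufb11 shares its own with Rbm10, with a log2 fold of -0.88 ± 0.14, and a region at 2 starts cannot be given to either gene.

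The highest fold at a start of complex I was that of Ndufaf4, an assembly factor, at chr4:24897041-24899041. It had 31.2 ± 0.9 CPM in controls and 37.6 ± 2.1 CPM in RANKL libraries, a log2 fold of 0.26 ± 0.13 that was not called (adjusted p = 0.105). In the fit of gene sums, in which the reads of all regions of a gene are added and scaled anew, this single region was called higher (log2 fold 0.41 ± 0.12, adjusted p = 0.00455). The gene fit places values somewhat higher than the region fit: for the only region of Atp5b the log2 fold was -0.31 in the region fit and -0.16 in the gene fit. Values of both fits are therefore kept apart below.

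As genes, 8 of the 79 members with a region were higher and 26 lower, with a median log2 fold of -0.15, while over all 15851 genes 25.1% were higher and 26.9% lower with a median of 0.01. All RANKL libraries lay below all controls at 31 genes and above them at 9, against 29.6% and 27.8% of all genes. With the signal trend removed 8 were higher and 16 lower, against 24.2% and 24.3% of all genes, and 7 and 15 of them were shared with the first fit. A log2 fold of at least 1 was called for 1 gene, Uqcrh, which was higher, against 5.19% of all genes higher and 1.55% lower. Complex I had 3 of 37 higher and 11 lower. Among its 30 subunits 2 were higher and 7 lower, and among its 7 assembly factors 1 was higher and 4 lower. The lower calls with the smallest adjusted p were Ndufv1 (98.1 to 66.9 CPM, log2 fold -0.56 ± 0.09), Ndufs8 (55.7 to 39.1 CPM, -0.53 ± 0.11) and the assembly factor Ndufaf6 (80.7 to 60.1 CPM, -0.43 ± 0.09). Ndufaf6 was lower at 3 of its 4 regions, with log2 folds of -0.90 ± 0.18 at its gene end, -0.63 ± 0.15 at 25.7 kb and -0.58 ± 0.18 at 9.26 kb, the last not called without RANKL replicate 1 (-0.40, adjusted p = 0.0818) or with the signal trend removed (-0.44, adjusted p = 0.0599).

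Ndufb6 rose as a gene although its start fell, and the rise came from 1 region outside the gene. That region, chr4:40288273-40290273, lies 8.85 kb from Ndufb6 with no protein-coding gene for 182 kb on its other side. It had 7.54, 6.27 and 4.69 CPM in controls and 48.2, 55.3 and 50.9 CPM in RANKL libraries. The log2 fold of 3.06 ± 0.16 (adjusted p = 2.23e-62), an 8.32-fold rise, was the highest of all 131 member regions, and the RANKL level reached that of the Ndufb6 start in controls. The next 2 member regions on the same side, 20.8 and 30.7 kb from the gene, were not called (log2 folds -0.81 ± 0.44 and -0.26 ± 0.28). The gene sum was 69.8 CPM in controls and 97.4 CPM in RANKL libraries (log2 fold 0.48 ± 0.09). With regions at gene ends only, Ndufb6 had a log2 fold of -0.58 (adjusted p = 7.54e-06), and with regions counted for every gene they overlap it was 0.06 (adjusted p = 0.439).

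Complex I also had a distal gain 81.5 kb from Ndufa10, at chr1:92356012-92358012, in the gap between Ndufa10 and Hdac4. Levels there were 4.25, 4.51 and 3.38 CPM in controls and 11.1, 12.4 and 14.5 CPM in RANKL libraries, with a log2 fold of 1.63 ± 0.28. The start of Ndufa10, an accessory subunit, had a log2 fold of -0.36 ± 0.11, which was not called with the signal trend removed (-0.13, adjusted p = 0.226) or without RANKL replicate 3 (-0.30, adjusted p = 0.0611) or control replicate 1 (-0.30, adjusted p = 0.062). Ndufv1 had another lower region 5.63 kb from the gene (36.8 to 22.9 CPM, log2 fold -0.70 ± 0.14). The most acetylated region of the genes of complex I was at the start of the assembly factor Ndufaf3, with 102 ± 7.5 CPM in controls and 86.0 ± 13.9 CPM in RANKL libraries, and it was not called (log2 fold -0.25 ± 0.11, adjusted p = 0.0517).

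**Figure D2:**
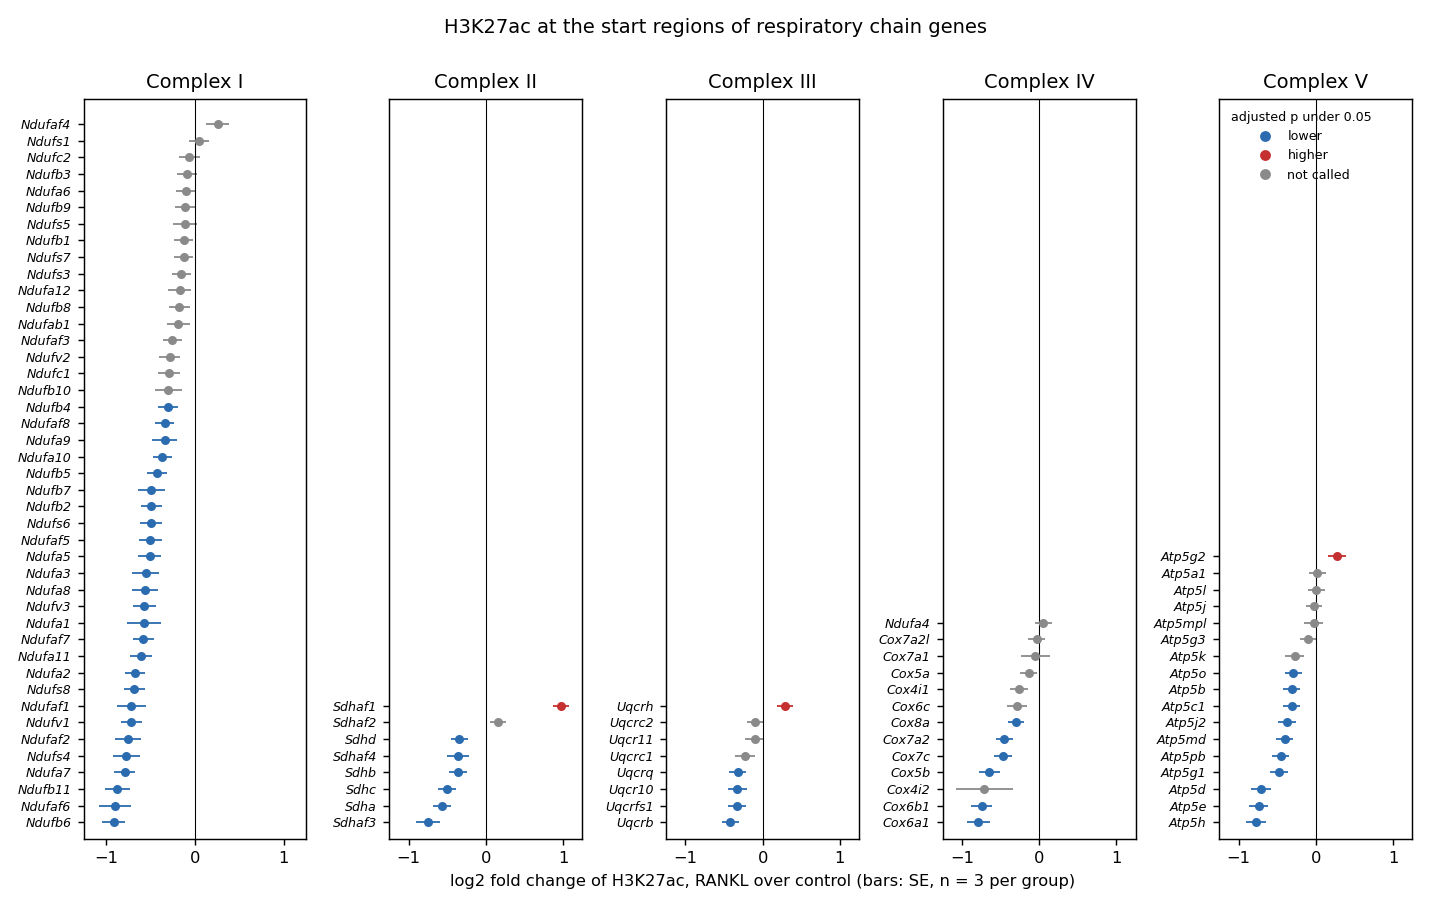
Each point is the region at the start (or a gene end) of 1 member, placed by its log2 fold change of H3K27ac, RANKL over control, with its SE, in 1 panel per complex. Blue and red points are lower and higher at adjusted p under 0.05: 52 are blue and 3, Sdhaf1, Uqcrh and Atp5g2, are red.

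Complex II, succinate dehydrogenase, had 3 of its 8 genes higher and 4 lower, and 2 higher and 1 lower with the signal trend removed. Of all genes 25.1% were higher and 26.9% lower, or 24.2% and 24.3% with the trend removed. The assembly factor Sdhaf1, which serves the iron-sulfur subunit, held the highest start of all members. Its start region, chr7:30321405-30323405, had 56.6, 59.9 and 54.0 CPM in controls and 114, 115 and 107 CPM in RANKL libraries. The groups were far apart, with a 1.96-fold rise, a log2 fold of 0.97 ± 0.11 and an adjusted p of 5.95e-17. Its other region, 10.4 kb away, was not called (log2 fold 0.07 ± 0.18), and as a gene Sdhaf1 had a log2 fold of 0.96 ± 0.08. Sdhaf1 was higher under every scaling.

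Sdhaf2, which attaches the flavin cofactor to Sdha, rose as a gene from 95.4, 97.1 and 107 CPM in controls to 134, 109 and 128 CPM in RANKL libraries (log2 fold 0.31 ± 0.08, adjusted p = 5.39e-04). Its start, shared with Cpsf7, was the most acetylated of complex II by its mean over all libraries (90.3 and 101 CPM) and was not called as a region (log2 fold 0.16 ± 0.11). Sdha, the catalytic flavoprotein subunit, was represented by 1 region inside the gene, with 8.89, 5.17 and 6.19 CPM in controls and 10.0, 9.96 and 11.3 CPM in RANKL libraries. In the gene fit this gave 0.82 ± 0.28 (adjusted p = 0.0107), which was not called without RANKL replicate 3 (0.73, adjusted p = 0.0636), without control replicate 2 (0.63, adjusted p = 0.0719) or with the signal trend removed. The start of Sdha lies in a region shared with Ccdc127 that fell from 53.6 to 35.5 CPM (log2 fold -0.57 ± 0.12), not called with the trend removed (-0.25, adjusted p = 0.0583). Counting that region for both genes turned the gene value of Sdha to -0.19 (adjusted p = 0.114).

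The other subunits of complex II were lower as genes. Sdhb, the iron-sulfur subunit, had 78.8 CPM in controls and 61.9 CPM in RANKL libraries (log2 fold -0.34 ± 0.09), and a region within the gene had a lower fold than its start (21.5 to 11.4 CPM, log2 fold -0.89 ± 0.19, against -0.37 ± 0.12). With the signal trend removed the Sdhb start was not called (-0.07, adjusted p = 0.646), while the region within the gene was (-0.77). The membrane anchors Sdhc and Sdhd had log2 folds of -0.35 ± 0.11 and -0.42 ± 0.14. Sdhc was not called without RANKL replicate 2 (-0.20, adjusted p = 0.133) and Sdhd not without RANKL replicate 1 (-0.33, adjusted p = 0.0655), and both were also lost with the signal trend removed (-0.22, adjusted p = 0.0893, and -0.30, adjusted p = 0.066). With gene ends only neither these nor Sdhb were called. The gene value of Sdhd rests on 1 region, 321 bp from the gene, as its start lies in a region assigned to Timm8b. In the region fit that region fell from 34.4 to 23.0 CPM (log2 fold -0.57 ± 0.14), a call lost with the trend removed (-0.29, adjusted p = 0.105). The assembly factor Sdhaf3 was lower at its start (32.1 to 19.1 CPM, log2 fold -0.75 ± 0.15) and as a gene (-0.31 ± 0.11), the latter not without RANKL replicate 3 (-0.24, adjusted p = 0.0975) or with the signal trend removed (-0.17, adjusted p = 0.188).

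Complex III, the cytochrome bc1 complex, had 1 higher and 1 lower of 6 genes, and 1 and 0 once the signal trend was removed. Of all genes 25.1% were higher and 26.9% lower in the first fit. Of its 8 start regions 1 was higher and 4 were lower in the region fit, against 5.03% and 54.7% of all gene starts. Removing the signal trend left 1 higher and 0 lower. Uqcrh, the hinge protein beside cytochrome c1, had the highest gene value of all members, from 1 region at chr4:116065935-116067935. It lies across the gene end away from the start, partly outside the gene span. This region had 6.18, 7.59 and 6.00 CPM in controls and 19.3, 20.2 and 18.8 CPM in RANKL libraries, a log2 fold of 1.53 ± 0.22 (adjusted p = 6.84e-11). As a gene the log2 fold was 1.68 ± 0.23. The Uqcrh start, shared with Lrrc41, was the most acetylated of all member starts by its mean over both groups, though not in controls alone, and was also higher, from 110, 89.8 and 111 CPM to 130, 130 and 120 CPM (log2 fold 0.29 ± 0.10, adjusted p = 0.0172). That call was lost without RANKL replicate 1 (0.28, adjusted p = 0.0693) or RANKL replicate 2 (0.27, adjusted p = 0.0839), and it stood at the library-size and trend-removed scalings.

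The core proteins of complex III, Uqcrc1 and Uqcrc2, were not called. The Uqcrfs1 start was called lower in the region fit, but Uqcrfs1 was not called as a gene (-0.16 ± 0.10, adjusted p = 0.166). That start call was lost with library size only (-0.24, adjusted p = 0.0527) or with the signal trend removed (-0.05, adjusted p = 0.754). It was also lost without RANKL replicate 3 or control replicate 1. Uqcrc2, with the most acetylated region assigned to the complex, had 66.5 ± 4.2 CPM in controls and 62.1 ± 2.8 CPM in RANKL libraries (log2 fold -0.09 ± 0.11, adjusted p = 0.557). Uqcrc1 had 39.6 and 33.9 CPM at its start (log2 fold -0.23 ± 0.13, adjusted p = 0.148). Uqcrb, a small subunit, was lower as a gene (60.0 to 49.9 CPM, log2 fold -0.26 ± 0.10, adjusted p = 0.0285), a call that many alternatives ended. It was lost with the signal trend removed (-0.13, adjusted p = 0.318), with gene ends only (-0.08, adjusted p = 0.526), with the DESeq2 test (adjusted p = 0.0849), with regions within 10 kb (adjusted p = 0.062) and without RANKL replicate 3, control replicate 1 or control replicate 3 (-0.19 to -0.24, adjusted p = 0.0975 to 0.198). Uqcrb has no listed start, and its only region lies within 2 kb of a gene end. In the region fit that region was called lower, and the call was lost only with the signal trend removed (-0.12, adjusted p = 0.372).

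Complex IV, cytochrome c oxidase, had 0 of 14 genes higher and 5 lower, against 25.1% and 26.9% of all genes. Once the signal trend was removed, 0 were higher and 4 lower. Cox6a1 was the lowest at its start, chr5:115348067-115350067, with 32.5, 31.6 and 34.9 CPM in controls and 20.0, 16.6 and 20.3 CPM in RANKL libraries. The groups did not overlap, and the log2 fold was -0.79 ± 0.15 (adjusted p = 9.88e-07). Cox6b1, which bridges the enzyme's monomers, fell at its start from 37.8 ± 0.2 to 22.5 ± 2.3 CPM (log2 fold -0.74 ± 0.14), and as genes Cox6a1 and Cox6b1 had log2 folds of -0.64 ± 0.15 and -0.59 ± 0.14. Cox5b fell at its start from 38.6 to 24.5 CPM (log2 fold -0.65 ± 0.13). Cox8a held the most acetylated start of the complex, 103 CPM in controls and 83.0 CPM in RANKL libraries, with a log2 fold of -0.30 ± 0.11. It was not called without RANKL replicate 2 or 3 or control replicate 1 or 3 (log2 folds -0.25 to -0.29, adjusted p = 0.0638 to 0.129), nor with library size only (-0.20, adjusted p = 0.0588) or with the signal trend removed (-0.11, adjusted p = 0.201).

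Cox4i1, a regulatory subunit, was lower as a gene (113 to 81.4 CPM, log2 fold -0.46 ± 0.08), and the fall lay away from the gene. A region 26.6 kb from it, chr8:120700842-120702842, had 34.0, 25.9 and 28.5 CPM in controls and 5.71, 12.7 and 8.44 CPM in RANKL libraries (log2 fold -1.69 ± 0.18). Another at 18.9 kb had a log2 fold of -0.81 ± 0.20. These regions lie between Cox4i1 and Irf8, a transcription factor gene of the interferon response, which is 33.5 and 41.3 kb away from them. The 4 regions of Irf8 in this neighbourhood were lower too, with log2 folds of -0.42 to -1.30. At the gene end of Cox4i1 itself the log2 fold was -0.27 ± 0.11 (adjusted p = 0.0531), and with regions within 10 kb only the gene value was -0.07 (adjusted p = 0.585).

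Isoforms of complex IV that are known from muscle, lung or testis were weakly acetylated. Of the 8 on the list, 3 had a region and none was called as a gene. Cox7a1, the heart and muscle isoform, had 16.3 ± 2.8 CPM in controls and 15.2 ± 4.4 CPM in RANKL libraries at its start (log2 fold -0.05 ± 0.19). Ndufa4l2, a hypoxia-responsive relative of Ndufa4, had 8.76 and 6.92 CPM (log2 fold -0.32 ± 0.27). Cox8b, another muscle isoform, was lower in a region 7.29 kb away, with 9.08, 8.25 and 16.7 CPM in controls and 4.28, 3.62 and 8.44 CPM in RANKL libraries. These libraries overlapped, and the call (log2 fold -0.97 ± 0.27) was lost without control replicate 3 (-0.62, adjusted p = 0.143). Cox6a2, Cox6b2, Cox7b2 and Cox8c had no region at all, nor had Ndufa13, Ndufb4b and Ndufb4c. For the other 14 members with no region of their own, a region assigned to a neighbour overlapped the listed start or lay within 2 kb of a gene end. The latter holds for Atp5a1, Cox4i2, Ndufa2, Ndufb9 and Uqcrq, which have no listed start.

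**Figure D3:**
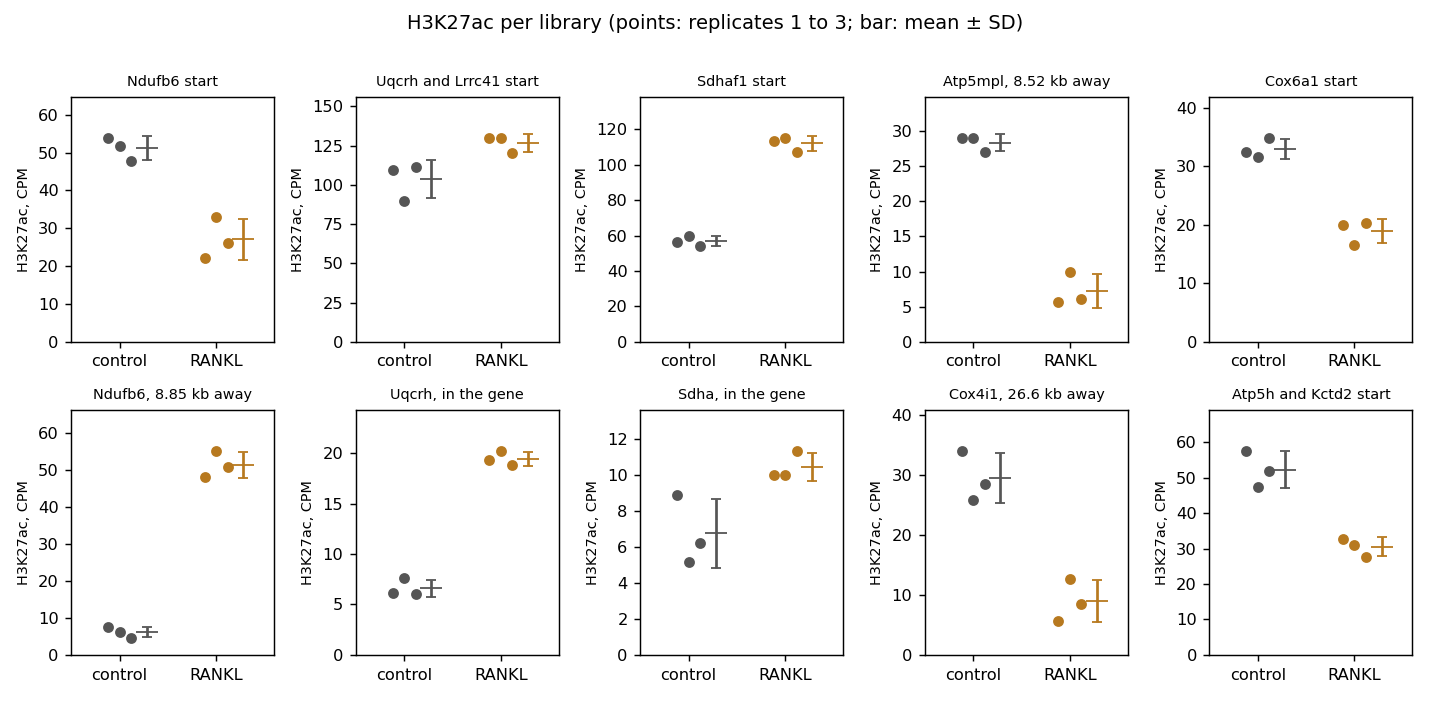
H3K27ac in CPM of 10 regions, with 1 point for each of 3 control and 3 RANKL libraries and the mean ± SD beside them, each axis from 0. The Ndufb6 start falls while the region 8.85 kb away rises from 6.17 to 51.4 CPM, Sdhaf1 and the region overlapping Uqcrh rise, and the regions near Atp5mpl and Cox4i1 fall.

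Complex V, the ATP synthase, had 1 higher and 5 lower of 14 genes, against 25.1% and 26.9% of all genes. Once the signal trend was removed, 2 were higher and 4 lower. Atp5h, a subunit of the peripheral stalk, shares its start with Kctd2, and this region fell from 57.6, 47.3 and 51.9 CPM to 32.8, 31.1 and 27.7 CPM (log2 fold -0.77 ± 0.12). Atp5e and Atp5d, which sit in the central stalk, fell at their starts from 47.5 to 28.6 CPM (log2 fold -0.74 ± 0.13) and from 39.7 to 24.1 CPM (-0.71 ± 0.13). As genes the log2 folds of Atp5h, Atp5e and Atp5d were -0.62 ± 0.12, -0.59 ± 0.12 and -0.56 ± 0.13. Atp5c1, the central-stalk gamma subunit, rose as a gene from 21.1, 18.3 and 14.2 CPM to 23.5, 26.3 and 27.1 CPM (log2 fold 0.53 ± 0.17, adjusted p = 0.00756), from 1 region inside the gene. In the region fit that region was not called (log2 fold 0.38 ± 0.16, adjusted p = 0.0562), though it was with library size only or the signal trend removed. As a gene it was not called without control replicate 3 (0.40, adjusted p = 0.0682). The Atp5c1 start, shared with Kin, had the opposite sign (85.4 to 68.9 CPM, log2 fold -0.32 ± 0.11), a call lost without RANKL replicate 2 or 3 or control replicate 1 (-0.24 to -0.26), with library size only (-0.22, adjusted p = 0.0542) or once the signal trend was removed (-0.10, adjusted p = 0.378), and counting it for both genes left Atp5c1 at 0.00 (adjusted p = 0.981).

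Atp5mpl, a small proteolipid of the synthase, was lower as a gene (154 to 109 CPM, log2 fold -0.51 ± 0.07), from regions outside it. The region 8.52 kb away, chr12:111950854-111952854, fell from 28.4 ± 1.2 CPM to 5.71, 9.96 and 6.03 CPM, all far below the controls. This log2 fold of -1.97 ± 0.19 (adjusted p = 4.74e-21) was the lowest of all 131 member regions. A region at 23.4 kb had a log2 fold of -0.86 ± 0.12, both lying between Atp5mpl and Ppp1r13b. Another at 2.15 kb fell from 12.4 to 7.59 CPM (-0.73 ± 0.24), with overlapping groups and the call lost with the DESeq2 test (adjusted p = 0.0608) or without RANKL replicate 2, control replicate 2 or control replicate 3 (-0.51 to -0.69, adjusted p = 0.0552 to 0.125). The gene end was at 41.0 CPM in controls and 41.2 CPM in RANKL libraries (-0.03 ± 0.12). With gene ends only, a fit that scales the libraries anew, the gene value of Atp5mpl was 0.29 (adjusted p = 0.0267) for this same region.

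Atp5g2, a c-ring subunit, was 1 of the 3 higher starts, with 60.1, 47.6 and 51.9 CPM in controls and 70.3, 65.2 and 57.4 CPM in RANKL libraries. These groups overlapped, and the log2 fold of 0.27 ± 0.11 (adjusted p = 0.0435) was not called with DESeq2 size factors, with the replicate block, or without RANKL replicate 1 or 2 or control replicate 2 or 3 (log2 folds 0.20 to 0.26). A region 4.99 kb from Atp5g2 was lower (41.5 to 24.0 CPM, log2 fold -0.80 ± 0.13). The paralogues Atp5g1 and Atp5g3 had log2 folds of -0.48 ± 0.12 and -0.10 ± 0.11 at their starts, of which Atp5g1 was called, though not with the signal trend removed (-0.18, adjusted p = 0.139). Atp5j, a stalk subunit whose start is shared with Gabpa, the gene of the GABP factor, held the most acetylated region assigned to complex V and was not called (93.0 ± 5.1 and 90.9 ± 4.0 CPM, log2 fold -0.03 ± 0.11).

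The largest changes among the members lay away from the starts. Of the 47 member regions outside gene spans 4 were higher and 11 lower, and of the 17 overlapping a span but not at a start 2 were higher and 2 lower. Over all 16691 regions outside gene spans the shares were 15.6% higher and 14.7% lower. The members with a log2 fold of at least 1 and a call were 4 higher (by Ndufb6, Ndufa10, Uqcrh and Cox7c) and 2 lower (by Atp5mpl and Cox4i1), against a background of 7.53% higher and 3.88% lower of all tested regions, and none of the 6 was at a start. The Cox7c region, 4.74 kb from the gene, had 1.93, 2.53 and 2.25 CPM in controls and 10.0, 1.81 and 6.03 CPM in RANKL libraries. RANKL replicate 2 was below the controls, and the call (log2 fold 1.36 ± 0.42) was lost without RANKL replicate 1 (0.83, adjusted p = 0.197) or with the signal trend removed (1.03, adjusted p = 0.0513). A region 30.1 kb from Atp5o rose from 8.61 ± 0.44 to 14.6 ± 1.6 CPM (log2 fold 0.77 ± 0.22). Nearest-gene assignment does not show that such a region acts on the gene.

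ONECUT2 binding was taken from the authors' deposited table, which lists sites with an FDR of up to 0.0496 as means per condition, with no value per library. All 13 sites of respiratory chain genes were listed as higher in RANKL organoids. From the listed p-values and FDRs, 7734 sites were tested, of which 93.9% were listed as higher, so the direction says nothing particular about the members. The median log2 fold of the member sites in the authors' deposited table was 1.89, from 1.36 to 2.95, and that of all listed sites 1.86. Sites stood at 12 of the 100 members, while 20.7% of all protein-coding gene symbols and 27.2% of the genes tested for H3K27ac had one.

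In the authors' deposited table the strongest member site was 21.1 kb from Cox7c, at chr13:86067933-86068333, with a mean of 8.93 normalised reads in controls and 75.0 in RANKL organoids (log2 fold 2.95, FDR 2.38e-15). Another Cox7c site stood 58.6 kb away on the other side of the gene. Sdha had a site inside the gene with 5.75 and 42.0 reads (log2 fold 2.71) in the authors' deposited table, but no H3K27ac region overlapped it. The site of Ndufa10 was 96.9 kb away, in the same gap as the H3K27ac gain near that gene, with 5.08 and 30.8 reads in the authors' deposited table. In the authors' deposited table the remaining sites belonged to Ndufaf6, Uqcrc1, Sdhaf3, Atp5l, Ndufaf2, Atp5g3, Sdhaf2, Cox7a2l and Ndufb2, with log2 folds from 1.36 (Ndufb2) to 2.09 (Ndufaf6).

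Of these sites 2 met a printed promoter. The Uqcrc1 site, chr9:108936393-108936793, covered the whole Uqcrc1 window with its ATCAAT and was centred 55 bp from the start, with 9.37 and 40.9 normalised reads in the authors' deposited table. The Ndufaf2 site, chr13:108158212-108158612, was centred 213 bp from the start and reached into the Ndufaf2 window, with 5.12 and 20.6 reads in the authors' deposited table. H3K27ac at these starts was 39.6 and 33.9 CPM for Uqcrc1, which was not called, and 34.0 and 20.1 CPM for Ndufaf2, whose start is shared with Ercc8 (log2 fold -0.75 ± 0.15, adjusted p = 2.28e-06).

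None of the member regions that an ONECUT2 site overlapped was called higher for H3K27ac. There were 7 such regions assigned to members, and 14.8% of all tested regions were called higher, so a count of 0 in so few is no result about the members. Of all tested regions 5.34% overlap a site. Of these and the Ndufaf2 start, the region inside Cox7a2l was lower (31.6 to 19.9 CPM, log2 fold -0.64 ± 0.15) and so was the Ndufb2 start (59.2 to 42.3 CPM, -0.49 ± 0.12), the latter not with the signal trend removed (-0.19, adjusted p = 0.128). The Atp5l start had 57.5 and 57.3 CPM (log2 fold 0.01 ± 0.11), and the regions by Cox7c, Ndufaf6 and in Sdhaf3 had log2 folds of 0.23 ± 0.42, 0.27 ± 0.27 and 0.09 ± 0.23, none of them called. Cox7a2l, which helps to join complexes III and IV, had 77.7 and 76.2 CPM at its start.

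**Figure D4:**
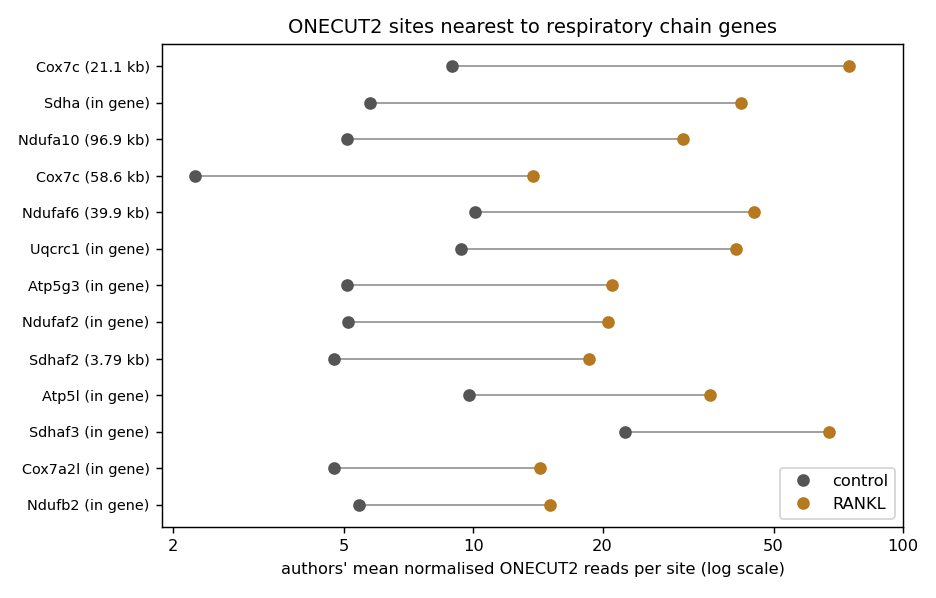
Mean normalised ONECUT2 reads in the authors' table, on a log scale, for the 13 sites nearest to respiratory chain genes, with control and RANKL values joined by a line. All 13 lines run to the right, from 2.25 to 22.6 reads in controls to 13.8 to 75.0 reads in RANKL organoids.

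Other genes of the same pathway, listed by function, were mixed in the gene fit. Of 28 assembly factors outside the Ndufaf and Sdhaf families 5 were higher and 9 lower. Cox16, an assembly factor of complex IV, rose from 13.8 ± 0.3 to 27.7 ± 8.7 CPM (log2 fold 1.03 ± 0.18), though with regions counted for every overlapping gene it was not called (0.24, adjusted p = 0.0502). Uqcc3, of complex III, fell from 50.9 to 34.9 CPM (log2 fold -0.57 ± 0.12). Of 12 genes of coenzyme Q synthesis 1 was higher and 7 lower, led by Coq8a (138 ± 12.3 to 79.3 ± 0.4 CPM, log2 fold -0.79 ± 0.08) and the methyltransferase gene Coq5 (48.5 to 28.7 CPM, -0.77 ± 0.13). Cycs, the somatic cytochrome c gene, was lower with a log2 fold of -0.65 ± 0.10 (71.8 to 45.8 CPM).

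Regulators of mitochondrial biogenesis had 7 of 16 higher and 4 lower. Esrrg, an estrogen-related receptor gene, rose from 64.8 ± 8.6 to 136 ± 10.8 CPM (log2 fold 1.06 ± 0.08), and Tfb1m, a methyltransferase for mitochondrial ribosomal RNA, fell from 72.3 ± 8.4 to 33.5 ± 3.7 CPM (-1.10 ± 0.11). Those called higher also held the coactivators Ppargc1a and Ppargc1b and the mitochondrial polymerase subunit Polg2. Those called lower held Tfam, the packaging factor of mitochondrial DNA (log2 fold -0.36 ± 0.12). The Tfam call was lost with the signal trend removed (-0.21, adjusted p = 0.162). In the tricarboxylic acid cycle 3 of 15 genes were higher and 6 lower, with Idh3g (75.6 to 45.9 CPM, log2 fold -0.72 ± 0.10) and Pdhb (81.1 to 56.8 CPM, -0.50 ± 0.09) lowest among those. In glycolysis 1 of 15 was higher, Gapdh (89.3 to 121 CPM, log2 fold 0.44 ± 0.08), and 5 were lower, Pgam1 the most (49.0 to 29.6 CPM, -0.72 ± 0.13). No test was made of any of these lists against other genes, of which 25.1% were called higher and 26.9% lower.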

How the data were processed

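The authors' deposited table gives raw H3K27ac read counts per 2000 bp region for 6 libraries. For ONECUT2, the authors' deposited table from DiffBind, per the submitters' processing notes, gives log2 mean normalised reads per condition, a log2 fold and a p-value and FDR per 401 bp site. Coordinates are on mm10, per the submitters' processing notes, and the sources used here name no aligner or peak caller. Input libraries (2) were not analysed here. Regions went to the nearest RefSeq protein-coding span within 100 kb (86.7% assigned); ties went to the largest overlap. Counts, per region and summed per gene, were tested over the whole table with edgeR 4.0.16 (R 4.3.3): quasi-likelihood, TMM, filterByExpr, Benjamini-Hochberg threshold 0.05. CPM use TMM-normalised totals. Region coordinates are as deposited, and whether starts count from 0 or from 1 was not settled.

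The fits were tested on simulated data with few changed features, and most of the smaller changes were missed there. A region or gene that was not called may therefore still have changed. Libraries of a group differed by more than sampling noise (chi-square per degree of freedom 1.8 to 2.06). Labels number the experiments in both groups and so pair them; same-numbered H3K27ac libraries had correlations of their deviations of -0.027 to 0.014, so they did not deviate together. Alternatives were DESeq2 1.42.0 (size factors, test), library size only, removal of the signal trend, no filter, the replicate block, leaving out each library, an adjusted p under 0.01, regions within 10 kb or at gene ends, and ties counted for every gene.

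Members and lists were chosen with earlier results of these data known. Named genes were, per complex, the 3 with the smallest adjusted p higher and lower and the one with the highest region, all members with an ONECUT2 site, the tissue-restricted isoforms, and 2 genes per pathway list; other regions and starts named, among them every member region called outside a start and the other start regions, were chosen after their values were seen. The values of some genes are not reported here. Of 100 members, 82 matched the promoter table.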

Additional observations from a re-analysis of the deposited data

How the results depend on the processing

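Scaling decided many of the calls. Of member regions 8 were higher and 50 lower; scaled to library size alone 13 were higher, and with the signal trend removed 14 were higher and 27 lower. Of start regions 3 were higher and 52 lower; library size alone gave 5 higher, the trend removed 11 higher and 22 lower, and a threshold of 0.01 gave 1 higher. Of member genes 8 were higher and 26 lower; the trend removed gave 16 lower, and gene ends only 14 higher and 14 lower. Against library size alone, TMM moved the median log2 fold of all regions from 0.153 to 0.0572. Leaving out each library in turn gave 6 to 9 higher and 41 to 51 lower member regions, 1 to 3 higher and 39 to 53 lower start regions, and 6 to 9 higher and 22 to 27 lower genes. The lowest count of higher starts came without RANKL replicate 1 or RANKL replicate 2. With the replicate block, 7 member regions were higher and 48 lower, 2 start regions higher and 50 lower, and 8 genes higher and 26 lower; of single starts it ended the calls of Atp5g2 (0.28, adjusted p = 0.0637), Atp5o (-0.29, adjusted p = 0.0537) and Ndufa9 (-0.33, adjusted p = 0.0659) and changed no named gene's call.

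Values turned in 5 places: with gene ends only, Atp5mpl to 0.29 (adjusted p = 0.0267), Cox4i1 to 0.076 (adjusted p = 0.537) and Ndufb6 to -0.58 (adjusted p = 7.54e-06); with ties counted for every gene, Sdha to -0.19 (adjusted p = 0.114); and with the trend removed, the Atp5o start to 0.0026 (adjusted p = 0.988). The first 4 came with a change in the regions summed, but each of those fits also scales the libraries anew. Gene ends only moved even Atp5j, which has 1 region, from 0.13 to 0.31. The gene-end region of Atp5mpl had a log2 fold of -0.03 in the region fit. The parts of regions and of scaling were not tested, nor was the cause at the Atp5o start. Depth limits the weakly acetylated regions most: the Cox7c region 20.4 kb from the gene, at 3.45 and 4.06 CPM, had a log2 fold of 0.23 with an SE of 0.42, against an SE of 0.11 at the Cox7c start.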

Other observations

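Over the 76 acetylated starts with a listed promoter, the median log2 fold was -0.25 for the 10 with NRF1 letters and -0.35 for the other 66. With ETS/GABP letters it was -0.36 for 22 and without them -0.34 for 54, and with YY1 letters -0.34 for 12 and without them -0.35 for 64. Rarer letters gave -0.43 for the 4 with the cAMP response element, -0.22 for the 2 with the estrogen-related receptor element and -0.11 for the 2 with ATCAAT, too few to compare. These are descriptions with no test.

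Start regions that members share with another gene had 18 of 26 lower (69.2%) and 1 higher, with a median log2 fold of -0.42, against 34 of 63 lower (54.0%) and 2 higher, with a median of -0.31, at starts held by a member alone. With the signal trend removed the shares were 26.9% lower and 19.2% higher against 23.8% and 9.52%. The difference was not tested.

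The region beyond the Ndufa10 gain, further from the gene and not within 100 kb of any, was also higher (3.55 ± 0.45 to 8.08 ± 1.78 CPM, log2 fold 1.19 ± 0.34, adjusted p = 0.00252). On the far side of Uqcrh from the start it shares with Lrrc41, a region in Faah was lower (45.7 ± 5.6 to 16.5 ± 1.5 CPM, log2 fold -1.49 ± 0.14), while a region in Nsun4 between them was not called (-0.23 ± 0.11, adjusted p = 0.0888).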
